A study of Mus musculus with 4 samples.

Results

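The 9 genes described here, Ablim1, Ctnnbip1, Urgcp, Per3, Arfip1, Sumo3, Panx1, Uchl1 and A530064D06Rik, are step-change genes of epididymal adipose tissue, a visceral fat pad of male mice: their RNA levels stood far apart in mice with different feeding histories and differed much less within each history. They were picked by symbol, for a large difference between the groups and a small spread within each group, from 24421 genes measured, with no numeric limit. All 9 were among the 14106 genes that reached 0.5 CPM in at least 2 of the 4 libraries and were tested. Because the difference between the groups chose them, their own differences are given as a description and without a test. Tests are reported only for other genes: close paralogues, chromosomal neighbours and genes of the same pathways.

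The 9 gene products have unlike known roles. Ablim1 is a LIM-domain protein that binds actin filaments, and Ctnnbip1 (also called ICAT) binds beta-catenin and keeps it from TCF transcription factors. Urgcp is named for promoting cell proliferation and is related to the very large interferon-inducible GTPases, and Per3 is a period protein of the circadian clock. Arfip1 (arfaptin-1) binds ARF and ARL GTPases at the Golgi, Sumo3 is a small protein that is joined to other proteins to alter their activity, Panx1 forms a membrane channel that releases ATP, and Uchl1 is a ubiquitin C-terminal hydrolase best known as an abundant protein of neurons. A530064D06Rik is named only for the clone in which it was found.

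RNA-seq was performed on poly(A) RNA of wild-type male C57BL/6J mice, with 2 libraries per group. Control mice (Ctrl) started a high-fat diet (HFD) at 10 weeks of age and were kept on it for 14 weeks. Weight-cycling mice (WC1) started HFD at 8 weeks of age, received it for 8 weeks, were switched to standard diet for 2 weeks, and returned to HFD for 6 weeks. Both groups were thus fed HFD for 14 weeks in all and were 24 weeks old at the end, so that the groups differ in the interruption and in the age at which HFD began. The labels do not say whether a library is 1 mouse or a pool, so that p-values measure the spread between these libraries only. In whole tissue, fewer cells of a type and less RNA per cell cannot be told apart. The libraries held between 61465029 and 90965297 reads. CPM here is the deposited read-based level, which is not corrected for transcript length, and TPM is the deposited level per length.

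The promoters of a few of these genes are shown first, because they carry letters bound by factors of the clock or of the antioxidant response. RefSeq lists 17 promoter windows for the 9 genes, each from 250 bases before to 50 bases after a transcription start. The windows were searched on both strands for the E-box CACGTG (bound by CLOCK and BMAL1), the D-box TTANGTAA (bound by DBP, TEF, HLF and NFIL3) and the antioxidant response element TGACNNNGC (ARE, bound by NRF2 with small MAF proteins), none of which overlapped another in the windows printed. The 250 bases upstream of the start are given 5′ to 3′ on the strand of the gene, from RefSeq on GRCm38.p6, with the matched letters in capitals: Per3 at chr4:151044666-151044915 on the minus strand, Urgcp (first promoter) at chr11:5762377-5762626 on the minus strand, and Sumo3 (first promoter) at chr10:77605847-77606096 on the plus strand.
Per3: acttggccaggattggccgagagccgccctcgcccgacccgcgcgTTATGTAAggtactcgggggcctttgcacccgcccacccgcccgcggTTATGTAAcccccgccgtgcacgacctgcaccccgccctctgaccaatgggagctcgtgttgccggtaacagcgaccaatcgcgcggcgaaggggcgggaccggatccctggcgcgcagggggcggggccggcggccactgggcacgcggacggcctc
Urgcp: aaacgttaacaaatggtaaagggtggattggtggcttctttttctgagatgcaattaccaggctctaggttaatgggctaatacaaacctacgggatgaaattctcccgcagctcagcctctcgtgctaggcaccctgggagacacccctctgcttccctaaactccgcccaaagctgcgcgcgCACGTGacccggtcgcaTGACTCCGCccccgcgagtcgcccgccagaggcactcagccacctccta
Sumo3: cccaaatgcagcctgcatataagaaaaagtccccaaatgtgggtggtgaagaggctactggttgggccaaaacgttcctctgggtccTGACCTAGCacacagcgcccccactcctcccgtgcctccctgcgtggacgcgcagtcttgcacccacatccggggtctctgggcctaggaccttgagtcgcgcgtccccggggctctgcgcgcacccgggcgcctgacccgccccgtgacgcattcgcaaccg
The Per3 sequence holds a pair of D-boxes, which begin at positions -205 and -158 from the start. D-box letters were in 2.32% of all 32851 promoters of the table and in no other promoter of the 9 genes. The Urgcp sequence holds an E-box at -66 and an ARE at -49. E-box letters were in 7.15% of all promoters and in no other promoter of the 9 genes. ARE letters were in 12.4% of all promoters and in 4 of the 17 here, which belong to Urgcp, Sumo3 and Ablim1, so that they stood before genes of both directions. The Sumo3 match begins at -163. The windows were also searched for other letters. GC box letters (GGGCGG, in 35.7% of all promoters) were in 10 of the 17 promoters here, of 6 genes. CCAAT (37.4%) was in 5 of the 17, of 5 genes, and TATAAA (13.6%) in 2 of the 17, both of Ablim1. The cAMP response element TGACGTCA (1.79%) and the PPAR response element (PPRE, 0.0396%) were found in none. A match describes the letters and does not show that a factor binds there.

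Ablim1, Ctnnbip1, Urgcp and Per3 were higher in WC1, and Arfip1, Sumo3, Panx1, Uchl1 and A530064D06Rik were lower, which makes 4 higher and 5 lower. The 2 libraries of one group did not overlap with those of the other in any of the 9 genes, in CPM or in TPM. Between the groups, 69.3% of all tested genes did not overlap in CPM, and since the same contrast chose the 9 genes nothing is read from their count. On the log2(CPM + 1) scale the larger gap between the libraries of a group ran from 0.04 in Arfip1 to 0.45 in Per3, while the median of this gap over all tested genes was 0.18, so that 6 of the 9 genes lay above that median and were steady only in relation to their difference. A log2 difference of at least 1 in size was found in 608 of the 14106 tested genes (4.31%).

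**Figure D1:**
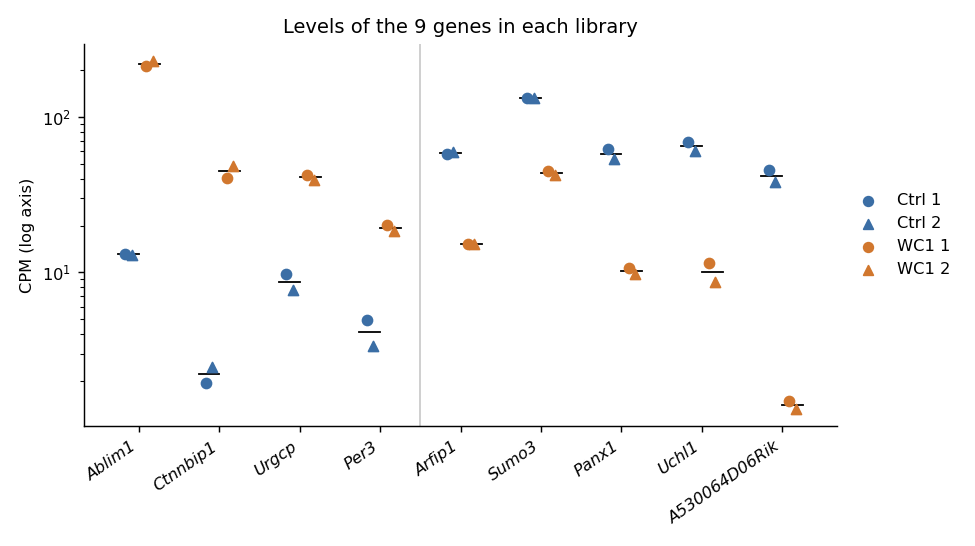
Each point is the CPM of a gene in 1 library on a log axis, blue for Ctrl and orange for WC1, with circles for library 1 and triangles for library 2; black lines are group means. The 4 genes left of the grey line lie higher in both WC1 libraries and the 5 genes right of it lie lower, with Ablim1 moving from 13.1 to 220 CPM and A530064D06Rik from 41.6 to 1.40 CPM.

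Ablim1 (chromosome 19, 57032733 to 57314919, minus strand, GRCm38) had 13.2 and 12.9 CPM in the Ctrl libraries and 212 and 228 CPM in the WC1 libraries. The actin-binding gene was thus 16.8-fold higher in mean CPM in WC1 (13.1 ± 0.2 against 220 ± 12, SD, n = 2), a log2 difference of 3.97 with 1 CPM added to each value. Any 1 WC1 library was between 16.0 and 17.6 times any 1 Ctrl library.

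Ctnnbip1 (chromosome 4, 149518236 to 149566437, plus strand) had 1.94 and 2.45 CPM in Ctrl, from 133 and 213 reads, and 40.6 and 48.6 CPM in WC1, from 2479 and 3060 reads. The beta-catenin inhibitor was 20.3-fold higher in WC1 (2.20 ± 0.36 against 44.6 ± 5.6 CPM), which is the largest upward ratio of the 9. Its log2 difference of 3.83 depends on the constant added to its low Ctrl level: with 4 CPM added it was 2.97, and 4.36 by edgeR on reads.

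Urgcp (chromosome 11, 5713417 to 5762376, minus strand) had 9.80 and 7.64 CPM in Ctrl and 42.2 and 39.5 CPM in WC1. Its mean was 4.68-fold higher in WC1 (8.72 ± 1.5 against 40.8 ± 2.0 CPM), a log2 difference of 2.11. Per3 (chromosome 4, 151003652 to 151044665, minus strand) had 4.94 and 3.36 CPM in Ctrl and 20.1 and 18.4 CPM in WC1. The clock gene was the member with the widest gap within a group, between the Ctrl libraries, and its mean was 4.64-fold higher in WC1 (4.15 ± 1.1 against 19.3 ± 1.2 CPM), a log2 difference of 1.99. Neither gene had a WC1 library as low as a Ctrl library.

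Arfip1 (chromosome 3, 84496093 to 84582625, minus strand) had 57.9 and 59.7 CPM in Ctrl and 15.1 CPM in each WC1 library. This Golgi gene was 3.89-fold lower in WC1 (58.8 ± 1.2 against 15.1 ± 0.044 CPM), a log2 difference of -1.89. Sumo3 (chromosome 10, 77606097 to 77618331, plus strand) had 133 CPM in each Ctrl library and 44.7 and 42.5 CPM in WC1, which is 3.05-fold lower (133 ± 0.042 against 43.6 ± 1.6 CPM) with a log2 difference of -1.59. Both genes showed almost no spread between the libraries of a group, and Sumo3 had the smallest difference of the 9.

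Panx1 (chromosome 9, 15002128 to 15045478, minus strand) had 61.9 and 54.0 CPM in Ctrl and 10.7 and 9.72 CPM in WC1. The ATP channel was 5.68-fold lower in WC1 (57.9 ± 5.6 against 10.2 ± 0.67 CPM), a log2 difference of -2.39. Uchl1 (chromosome 5, 66676091 to 66687234, plus strand) had 68.8 and 60.5 CPM in Ctrl and 11.4 and 8.67 CPM in WC1. The hydrolase was 6.43-fold lower in WC1 (64.6 ± 5.9 against 10.1 ± 2.0 CPM), a log2 difference of -2.58. In both genes the lowest Ctrl library was at least 5.06 times the highest WC1 library.

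A530064D06Rik (chromosome 17, 48149126 to 48167275, minus strand) lies in the cluster of Trem receptor genes. It had 45.4 and 37.9 CPM in Ctrl, from 3102 and 3299 reads, and 1.49 and 1.32 CPM in WC1, from 91 and 83 reads. This was the largest ratio of the 9, 29.6-fold lower in WC1 (41.6 ± 5.3 against 1.40 ± 0.12 CPM), with a log2 difference of -4.14. The log2 value was -3.07 with 4 CPM added and -4.87 by edgeR on reads. By the size of the log2 difference, A530064D06Rik ranked 3, Ablim1 8 and Sumo3 110 among the 14106 tested genes.

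Levels of different genes were compared per length, in TPM. In Ctrl the order of mean TPM was Uchl1 (108), Sumo3 (96.8), Panx1 (53.6), A530064D06Rik (43.0), Arfip1 (38.0), Ablim1 (3.91), Urgcp (3.15), Ctnnbip1 (1.57) and Per3 (1.32). The 5 genes that were lower in WC1 thus all stood above the 4 that were higher there. Only the neighbours Ctnnbip1 and Per3 overlapped between their Ctrl libraries. In WC1 the order was Ablim1 (74.0), Ctnnbip1 (35.5), Sumo3 (34.5), Uchl1 (18.5), Urgcp (16.0), Arfip1 (10.7), Panx1 (10.4), Per3 (6.79) and A530064D06Rik (1.60). Ctnnbip1 overlapped with Sumo3 there, and Arfip1 with Panx1. Once the median of all genes in each library was taken off, the log2 ratio of CPM to TPM deviated from its mean over the libraries by at most 0.038 in each of the 9 genes, so that the TPM differ from the CPM almost only by a fixed length per gene and a shift per library.

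**Figure D2:**
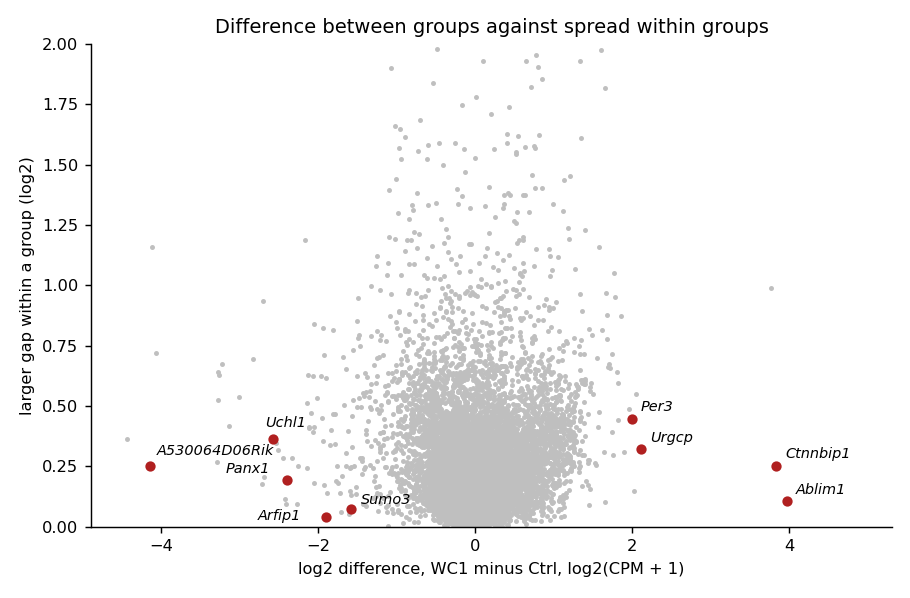
Each grey point is 1 of the 14106 tested genes, with the log2 difference between the groups (WC1 minus Ctrl, log2 of CPM + 1) on the horizontal axis and the larger gap between the 2 libraries of a group on the vertical axis; 49 genes with a gap above 2 are not drawn. The 9 genes, in red, lie at the outer left and right with gaps of 0.04 to 0.45.

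Genes with a like pattern were ranked by the size of the log2 difference over the larger gap within a group, over the 4 libraries, with gaps under 0.1 set to 0.1. Among 603 tested genes with a log2 difference of at least 1 in size and a mean of at least 1 CPM, Ablim1 ranked first with 37.0, and 6 of the 9 genes ranked within the first 20. Urgcp (6.58, rank 80), Uchl1 (7.11, rank 77) and Per3 (4.45, rank 164) stood lower. The non-members with the highest values were Slc7a11, the cystine transporter, which was also lower in WC1 (24.1, log2 fold change -2.41), Wfdc17, a secreted protein of activated macrophages (22.7, -2.27), the mast cell receptor genes Mrgprb1 (20.6, -2.42) and Mrgprx2 (17.1, -1.71), and Pex2, a peroxisome assembly gene that was higher in WC1 (16.3, 1.65).

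The paralogues of these genes were then compared, to see whether whole families differed between the groups. Over all tested genes, limma called 10.2% higher and 7.71% lower in WC1, or 17.9% in either direction, at an adjusted p under 0.05. Of 16 close paralogues, 14 had a row in the data and 11 were tested. Ablim3 rose (1 of 11, or 9.09%) and 0 fell by limma. At an unadjusted p under 0.05, 3 were higher and 2 lower in limma, and the adjusted calls were 0 lower by edgeR and 1 lower by DESeq2, Per1. The median log2 fold change of the 11 was -0.07, beside -0.02 for all tested genes.

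Ablim3 is a LIM-domain actin-binding protein like Ablim1. It had 34.0 and 46.2 CPM in Ctrl and 80.7 and 118 CPM in WC1, and rose by 1.28 ± 0.23 (log2, SE; limma adjusted p = 0.028). The groups did not overlap, but in fits without Ctrl library 1 or without Ctrl library 2 limma did not call it (0 of 11 paralogues, with an unadjusted p under 0.05 in 2 of them each time), and it was also not called without a filter on low values. Of the TPM summed over Ablim1 and Ablim3, Ablim1 held 21.8% and 16.3% in Ctrl and 65.4% and 58.2% in WC1.

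Lzic, a beta-catenin-binding relative of Ctnnbip1 that is also its chromosomal neighbour, had 18.8 and 20.4 CPM in Ctrl and 24.5 and 23.5 CPM in WC1 (log2 fold change 0.28, limma adjusted p = 0.082; 0.034 on the TPM matrix). Ctnnbip1 held 6.39% and 7.35% of the TPM of this pair in Ctrl and 52.5% and 58.0% in WC1. Per1 had 92.0 and 105 CPM in Ctrl and 47.5 and 72.3 CPM in WC1, and its log2 value of -0.73 did not pass (limma adjusted p = 0.069; 0.019 with a replicate block), and Per2 stood at 0.06 on that scale (limma adjusted p = 0.83). Among the period genes, Per3 held 3.42% and 2.00% of the TPM in Ctrl and 19.1% and 13.3% in WC1. Per1 values lay on the other side from those of Per3 without overlap, and Per2 values overlapped.

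Gvin1, the only relative of Urgcp with a row, varied within both groups (17.9 and 50.4 CPM in Ctrl, 10.5 and 66.7 CPM in WC1) and differed between the groups by far less than this spread (log2 fold change -0.16 ± 0.93, limma adjusted p = 0.92). The sign of this value changed with the method.

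For Arfip1, Sumo3 and Uchl1, which were lower in WC1, no listed and tested paralogue passed the test, by limma or by any of the 13 alternatives, although the limma p of Pick1 (0.028) and Uchl3 (0.016) was under 0.05 before adjustment. No paralogue was listed for A530064D06Rik. The arfaptin relatives Arfip2 (log2 fold change 0.18, limma adjusted p = 0.14) and Pick1 (0.32, limma adjusted p = 0.094), which share its membrane-binding BAR domain, had values on the opposite side from Arfip1. Sumo2, whose protein is nearly identical to that of Sumo3, had 116 CPM in each Ctrl library and 111 and 110 CPM in WC1 (-0.07, limma adjusted p = 0.44), and its log2 value was 0.07 in TPM. Of the TPM summed over Sumo2 and Sumo3, Sumo3 held 30.3% and 30.2% in Ctrl and 13% and 12.6% in WC1, while the sum was 319 and 322 TPM in Ctrl and 266 and 271 TPM in WC1.

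The hydrolases Uchl3 (-0.32, limma adjusted p = 0.067), Uchl5 (-0.16, limma adjusted p = 0.21) and Bap1 (-0.07, limma adjusted p = 0.51) did not pass. Uchl1 held 49.1% and 46.4% of the TPM of its family in Ctrl and 15.5% and 12.7% in WC1. The other pannexins, Panx2 and Panx3, had at most 5 reads in a library, so that Panx1 held at least 99.9% of the family in every library. Uchl4 had at most 2 reads.

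**Figure D3:**
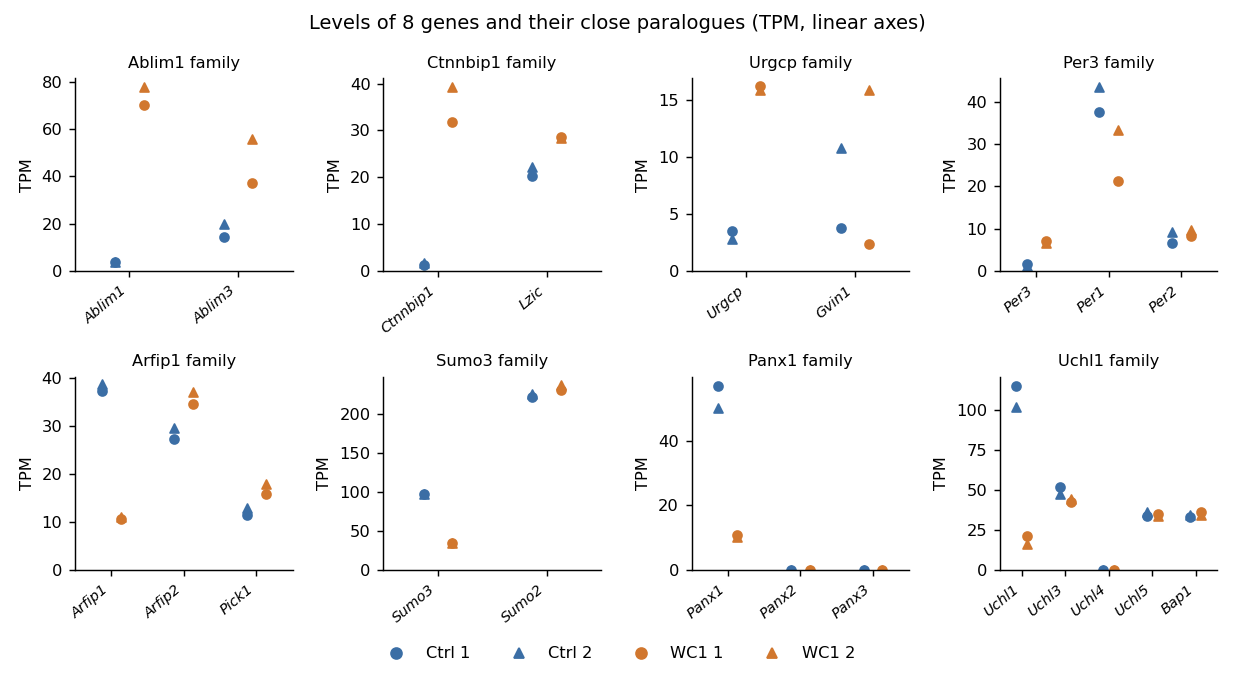
Each panel shows the TPM (linear axis from 0) of 1 of the 8 genes with paralogues, at the left, beside those of its paralogues, blue for Ctrl and orange for WC1, with circles for library 1 and triangles for library 2. In most panels the orange and blue points are far apart for the first gene and close together for the others, with Ablim3, Per1 and Gvin1 as exceptions.

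Reads of overlapping or near-identical genes may be shared with these genes. No stretch of 50 bases in the transcripts of Ablim1 or Panx1 was found in another gene of GENCODE M21, and in Per3 the share was 0.217%. In Arfip1, 72.6% of the stretches also belong to Gm37240, an annotated gene on the same strand that overlaps it and has no row in the matrices, and in Ctnnbip1 24.6% belong to Gm13066 on the opposite strand, also without a row. Sumo3 shares 7.83% with the overlapping gene Gm49325. Uchl1 shares 12.6% with the antisense Uchl1os, which had at most 2 reads in a library. The levels of Arfip1 and Ctnnbip1 are thus uncertain as to which of the overlapping genes gave the reads. The library kit keeps the strand, but no source used here says whether the counting used it.

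A530064D06Rik shares 7.81% of its stretches with other genes. The largest share, 3.11%, was with its neighbour 9830107B12Rik, which had at most 6 reads in a library. Next was B430306N03Rik with 2.98%, a gene of the same cluster that is named here after its values were seen. B430306N03Rik had 80.6 and 67.2 CPM in Ctrl and 8.67 and 5.19 CPM in WC1, and fell by 3.27 on the log2 scale (SE 0.23, limma adjusted p = 0.0087). Of the Trem receptors measured at the same place, Treml4 fell by 1.26 (limma adjusted p = 0.013), and Trem2, a receptor of lipid-handling macrophages, had a log2 value of -0.94 that did not pass (limma adjusted p = 0.054) but was called lower by DESeq2, without either WC1 library and with a replicate block. Treml1 (-0.69, limma adjusted p = 0.19) and Treml2 (-0.16, limma adjusted p = 0.72) did not pass either, with overlap between the groups in Treml2, although Treml1 was called lower without WC1 library 1, and Trem1 and Trem3 were below the limit for testing. The falls of B430306N03Rik and Treml4 were not called without Ctrl library 1 or without Ctrl library 2, where the adjusted p of B430306N03Rik was at most 0.099 and that of Treml4 at most 0.13. The 4 protein-coding neighbours of A530064D06Rik were below the limit for testing.

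The neighbours on the chromosome were compared to see how far each difference reached along the genome. Among the 2 protein-coding genes on each side, 36 in all, 33 had a row and 19 were tested. Limch1 rose and Pik3cd and Itgb2 fell, which is 3 of 19 (15.8%), close to the 17.9% of all tested genes, and the median was -0.03. In fits without Ctrl library 1 or without Ctrl library 2, limma called 0 of the 19, with an unadjusted p under 0.05 in 4 and 3 of them.

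The tested neighbours that overlap one of the 9 genes or lie under 10 kb from it are given in full, and none passed the test in limma. Vamp3, a vesicle fusion gene 2.63 kb from Per3, had 133 and 132 CPM in Ctrl and 128 CPM in each WC1 library (log2 fold change -0.05, limma adjusted p = 0.63). Pttg1ip, 7.37 kb from Sumo3, had 227 and 229 CPM in Ctrl and 225 and 227 CPM in WC1 (-0.02, limma adjusted p = 0.88). Ube2g2, a ubiquitin-conjugating enzyme 3.94 kb from Sumo3, had 90.5 and 91.4 CPM in Ctrl and 81.5 and 80.5 CPM in WC1 (-0.16, limma adjusted p = 0.13). These levels lay close together in comparison with Sumo3 itself. Hephl1, a relative of ceruloplasmin 6.36 kb from Panx1, had 6.24 and 5.54 CPM in Ctrl and 9.28 and 7.97 CPM in WC1 (0.48, limma adjusted p = 0.058), on the opposite side from Panx1, and it was called higher on the TPM matrix, by DESeq2, without WC1 library 2 and with a replicate block. Mrps24, a mitochondrial ribosome gene that overlaps Urgcp, differed by -0.08 (limma adjusted p = 0.50), and Camta1, which overlaps Per3, by 0.16 (limma adjusted p = 0.34). Differences of the size seen in the 9 genes were not found in these neighbours. Because the 9 genes were chosen for large differences, smaller ones in other genes follow from the choice, and nothing is read from this.

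Of the neighbours that passed, none was as far apart as the gene beside it. Limch1, an actomyosin regulator beside Uchl1, rose by 0.99 ± 0.09 (limma adjusted p = 0.012), against the direction of Uchl1. Pik3cd, the leukocyte PI3-kinase subunit 82.7 kb from Ctnnbip1 with Clstn1 between, fell by 0.42 ± 0.09 (limma adjusted p = 0.036), against the direction of Ctnnbip1. Itgb2, the leukocyte integrin subunit 40.4 kb from Sumo3 with Pttg1ip between, fell by 1.11 ± 0.23 (limma adjusted p = 0.036), from 1348 and 1252 CPM to 749 and 482 CPM. Without a filter on low values, Pik3cd and Itgb2 were not called, nor was Pik3cd on the TPM matrix.

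**Figure D4:**
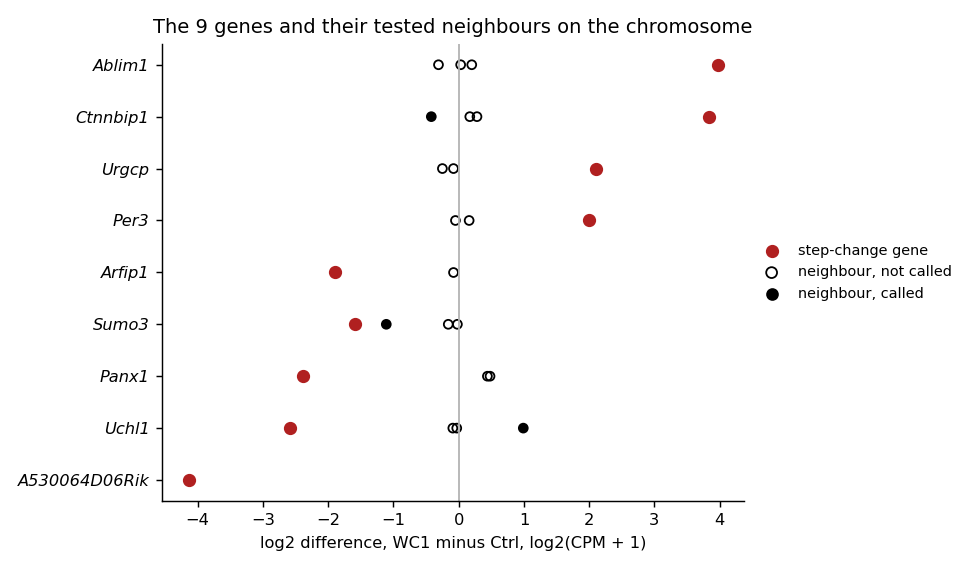
Log2 differences (WC1 minus Ctrl, log2 of CPM + 1) of the 9 genes in red and of their tested neighbours in black, filled where called by limma. The neighbours lie between -1.11 and 0.99, and those of A530064D06Rik are missing because none reached the limit for testing.

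Other genes of the pathways were taken from 8 lists, without the 9 genes. Of 187 tested genes, 18 rose and 14 fell (17.1%, beside 17.9% of all tested genes), with a median of -0.06 beside -0.02. By list the share called ran from 0% of 22 genes (SUMO) to 42.9% of 14 genes (D cyclins), to be read beside the same 17.9%. In fits without Ctrl library 1 or without Ctrl library 2 limma called 0 of the 187, where 35 and 49 had an unadjusted p under 0.05, so that every call in the following paragraphs rests on both Ctrl libraries. Without WC1 library 1, 68 were called. Without a filter on low values 16 were called, and of the genes named next Hlf, Cry2, Sox17, Bcl9l, Tle1, Adora2b, Arf6, Gcc1, Ablim3, Rps27a, Cdkn2b, Rb1, Cdk4 and Cdk6 were not among them. On the TPM matrix Tle1, Arf6, Gcc1, Rps27a and Cdk4 were not called.

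In the beta-catenin list, 5 of 30 tested genes rose and 0 fell by limma (16.7%, near the 17.9% of all tested genes). On the lower side 3 had an unadjusted p under 0.05, Ccnd1 (-0.37), Tle4 (-0.38) and Pygo2 (-0.18), and edgeR and DESeq2 also called 0 lower. The risers were Nkd1, which rose by 1.27 ± 0.14 (limma adjusted p = 0.015), Axin2, which rose by 0.83 ± 0.13 (limma adjusted p = 0.024), Sox17 (1.04), Bcl9l (0.71) and Tle1 (0.63). Nkd1 and Axin2 are feedback inhibitors of the pathway and common targets of it. The median of the list was 0.09. Ctnnbip1 was higher in the same libraries, and a link between it and these genes was not tested.

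In the clock list, 2 of 22 tested genes rose by limma, Hlf (0.80 ± 0.16, limma adjusted p = 0.035) and Cry2 (0.56 ± 0.12, limma adjusted p = 0.038), and DESeq2 called 3 higher and 3 lower. Hlf is a factor that binds the D-box letters printed above for Per3. The other D-box factors did not pass, with log2 fold changes of 0.16 for Dbp (limma adjusted p = 0.45), 0.22 for Tef (limma adjusted p = 0.076, but called higher on the TPM matrix) and -0.20 for Nfil3 (limma adjusted p = 0.39). The E-box factors named above did not pass either, with 0.21 for Clock (limma adjusted p = 0.14) and -0.12 for Arntl, which encodes BMAL1 (limma adjusted p = 0.28). Elsewhere in the list, Npas2 (-0.76, limma adjusted p = 0.061) and Bhlhe41 (-1.26, limma adjusted p = 0.069) were called lower by DESeq2 and with a replicate block, as was Per1. DESeq2 also called Nr1d1 higher (0.68, limma adjusted p = 0.095). The labels give no time of day for the tissue collection, and its part in the Per3 values was not tested.

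In the purinergic list around Panx1, 2 of 22 genes rose and 4 fell. The adenosine receptors were split: Adora1 rose by 1.25 ± 0.11 (limma adjusted p = 0.012) and Adora2a by 1.12 ± 0.15 (limma adjusted p = 0.019), while Adora2b and Adora3 each fell by 0.64. Adora2b and Adora3 each lost their call in 4 of the 13 alternatives, Adora3 among them without WC1 library 2. The nucleotide receptor P2ry13 fell by 0.84 and the ecto-nucleotidase Entpd2 by 0.52.

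In the SUMO list, 0 of 22 tested genes passed by limma, edgeR or DESeq2, with 4 under a limma p of 0.05 before adjustment. The smallest p belonged to Uspl1, a SUMO protease (-0.26 ± 0.08, limma adjusted p = 0.075), and the median was -0.13. Without WC1 library 1, limma called 3 genes of the list lower, with Uspl1 (adjusted p of 0.040) among them. In the list of ARF GTPases and Golgi curvature, 4 of 26 fell by limma (2 by edgeR and 5 by DESeq2) and 0 rose by any of these tools (1 with an unadjusted p under 0.05 on the higher side in limma). Among those that fell were Arf2, which fell by 0.52 ± 0.07 (limma adjusted p = 0.020), and Arf5, which fell by 0.49 ± 0.08 (limma adjusted p = 0.026). Arf6 and Gcc1 were the others, with limma adjusted p of 0.049 and, just under the threshold, 0.050, and their calls were lost in 6 and 9 of the 13 alternatives.

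In the list of LIM-domain actin-binding genes, 5 of 35 rose and 2 fell. Ablim3 and Limch1 are among the 5 and were described above, and Pdlim4 had the largest fall, from 52.3 and 45.9 CPM to 14.1 and 13.8 CPM (by 1.74 on the log2 scale, SE 0.09, limma adjusted p = 0.0047). In the ubiquitin list, 1 of 17 rose, Usp14, a deubiquitinase of the proteasome (0.82 ± 0.09, limma adjusted p = 0.014), and 1 fell, Rps27a, which encodes ubiquitin fused to a ribosomal protein (by 0.50, limma adjusted p = 0.047). In the D cyclin list around Urgcp, 3 of 14 rose and 3 fell, with Ccnd2 up by 0.84 (limma adjusted p = 0.019) and the cell cycle inhibitor Cdkn2a down, from 3.16 and 3.52 CPM to 1.34 and 1.45 CPM (limma adjusted p = 0.020). The other 4 called were the inhibitor Cdkn2b, which rose by 0.59, Rb1, the target of these kinases, which rose by 0.35, and the kinases Cdk4 and Cdk6, which fell by 0.43 and 0.68. Cdk6 was not called by edgeR, which called 2 lower in this list, and neither Cdk6 nor Cdkn2b was called without WC1 library 2. Activators and inhibitors of the list were thus found on both sides.

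**Figure D5:**
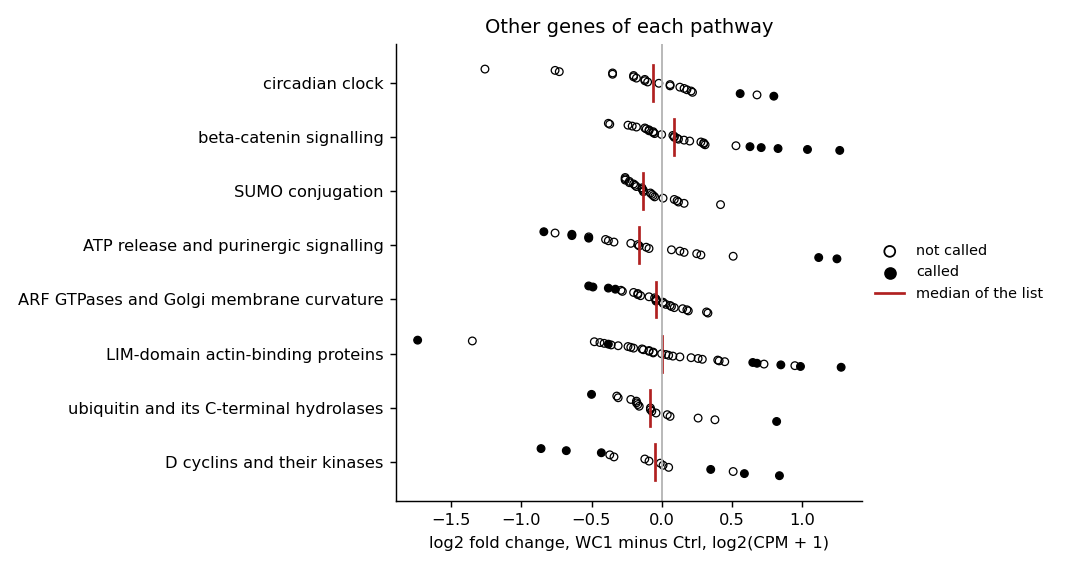
Log2 fold changes (WC1 minus Ctrl, log2 of CPM + 1) of the tested genes of each list without the 9 genes, filled where called by limma, with the median of the list as a red line. All medians lie between -0.16 and 0.09, and no listed gene lies beyond -1.74 or 1.28.

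Markers of several cell types moved between the same groups. Of 70 tested markers 30 were called (42.9%), beside 17.9% of all tested genes, with 10.2% higher and 7.71% lower. In the nerve and erythroid lists 20% were called, near that share. The sum of 12 adipocyte markers was 20519 to 21688 CPM in Ctrl and 30918 to 36976 CPM in WC1, with 8 called higher. The sum of 10 macrophage markers was 10018 to 11055 CPM in Ctrl and 4460 to 6419 CPM in WC1, with 5 called lower, and that of 6 mast cell markers was 553 to 613 and 65.3 to 83.2 CPM, with 5 called lower. Of 8 fibroblast and progenitor markers, 3 were called lower, Pdgfra, Dcn and Lum, with sums of 8771 to 9107 CPM in Ctrl and 6194 to 7956 CPM in WC1. The other 5 did not pass in limma. Among these, Dpp4 (log2 fold change 0.27) and Col1a1 (0.09) stood higher in WC1, and Col3a1 (-0.36), Pi16 (-0.42) and Ly6c1 (-0.06) lower. Of 6 endothelial markers, 5 were called higher (350 to 397 CPM in Ctrl, 741 to 962 CPM in WC1). Of 10 Schwann cell and nerve markers, which bear on Uchl1, 5 were tested and 1, Tubb3, was called lower, with sums of 81.2 to 85.4 CPM in Ctrl and 71.9 to 76.2 CPM in WC1, and Th and Elavl4 at 0 in every library. Mbp made up most of these sums, with 76.6 and 68.6 CPM in Ctrl and 68.9 and 65.4 CPM in WC1. The sums thus say little about the other nerve markers. Tubb3 had 5.54 and 8.64 CPM in Ctrl and 3.24 and 3.19 CPM in WC1. Of 8 epididymis markers 7 were at 0 in every library, and Adam7 had 3.02 CPM in WC1 library 1 and 0.0318 CPM in WC1 library 2. Single haemoglobin genes, whose near-identical copies can share reads, were uneven between libraries, with Hba-a1 at 2.49 and 3.42 CPM in Ctrl and 241 and 51.8 CPM in WC1 (called higher), while 5 erythroid markers summed to 208 to 342 CPM in Ctrl and 456 to 491 CPM in WC1. Of the mesothelial (6 tested) and T and NK cell (6 tested) markers limma, edgeR and DESeq2 called 0, with 0 under a limma p of 0.05 before adjustment. The WC1 libraries differed in mesothelial markers, with sums of 60.7 and 163 CPM, against 90.5 and 122 CPM in Ctrl, and 3 of the 6 were called without WC1 library 1 and 3 without WC1 library 2. Of 4 B cell markers 1, Cd79b, was called higher, with sums of 2.59 to 4.31 CPM in Ctrl and 7.24 to 26.4 CPM in WC1. Of 6 skeletal muscle markers 2 were tested and Acta1 was called higher. All 30 marker calls were lost without Ctrl library 1 and without Ctrl library 2, and without a filter on low values Aqp7 alone was called among the adipocyte markers, Mrc1 and Mertk among the macrophage markers and Pdgfra among the fibroblast markers, while Tubb3 and Cd79b were not called. The call of Cd79b was lost in 6 of the 13 alternatives and that of Tubb3 in 5. On the TPM matrix Tubb3, Itgam, Cd14 and Lum were not called. The defining adipocyte markers show the labelled tissue in all 4 libraries. The part of these shifts in the differences of the 9 genes was not tested.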

How the data were processed

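RNA was measured in 4 libraries of mouse epididymal adipose tissue, grouped by their titles. The submitters' processing notes list fastp, HISAT2, StringTie and the build mm10; for versions, read counter and annotation, the sources used here give nothing. The authors deposited a matrix named CPM, which is a signal proportional to read counts: its columns sum to between 97.64% and 104.8% of what plain CPM would sum to, and 100% of its values were whole reads within 0.01 read. TPM were deposited by the authors as a second matrix. The study left out genes under a CPM limit, and a limit was applied here too. The recovered totals were 71658062 and 90965297 reads for the Ctrl libraries, 61655738 and 61465029 for WC1, and 3 reads correspond to 0.0345 to 0.0492 CPM, for counting error only.

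Of 24421 genes, the 14106 that reached 0.5 CPM in 2 or more libraries were tested on log2(CPM + 1), a scale that understates changes of low genes, by limma 3.58.1 in R 4.3.3 with a variance trend and two-sided p-values, adjusted after Benjamini and Hochberg over the 14106 genes (threshold 0.05). Errors of fold changes are SE and those of group means SD of 2 libraries. edgeR 4.0.16 on the recovered reads called 1476 genes higher and 1007 lower, and limma 1443 and 1088. Adjusted p-values in the text are from limma. An exact permutation test of 1 gene cannot go below 0.333 here. Alternatives were 13: 2 other pseudocounts, 2 other filters, another scaling, the TPM matrix, edgeR, DESeq2 1.42.0, each library left out, and a replicate block. The scripts were tested on simulated data.

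The 9 genes, the paralogues (by hand), the pathway lists and the marker lists were chosen with earlier results of these data known. Named genes were the 9, all their paralogues, the called neighbours, of each pathway list the 2 genes with the smallest p (1 in the SUMO list), and the 5 non-members most like the 9; predicted genes, Rik symbols and pseudogenes were skipped for the last. A few genes of these lists are not reported here and stay out of the list counts. Other listed genes were named after their values were seen, among them the nearest neighbours, the D-box factors and genes of the Trem cluster. Positions are from GENCODE M21 and promoters from RefSeq, both GRCm38, the build also called mm10.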

Additional observations from a re-analysis of the deposited data

How the results depend on the processing

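The log2 differences of the 9 genes were recomputed under 13 alternatives: of 117 values, 26 moved by more than the spread between libraries. None of the 26 came from leaving a library out. With 2 libraries per group such a fit cannot move a value by more than this spread, so nothing is read from that. The direction of the 9 genes and their lack of overlap follow from how they were chosen and are no sign of stability. Counts of calls depended on the Ctrl libraries. With 1 library left out, the number of genes called higher ran from 2 to 2424 and lower from 4 to 2748, paralogues called from 0 to 2, neighbours from 0 to 5 and pathway genes from 0 to 68. The lowest counts came without Ctrl library 1 (2 and 4) and without Ctrl library 2 (6 and 6), where the unadjusted p was under 0.05 in 2621 and 3115 genes, and the highest without WC1 library 1. The cause was not tested. The lone library is then assumed to vary like the other group.

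Without a filter, with 18132 genes tested, 788 genes were called higher and 532 lower, 0 paralogues (6 of 14 had an unadjusted p under 0.05) and 16 pathway genes. On the TPM matrix 2054 were higher and 583 lower (77.9% of calls higher, against 57.0%) and 2 paralogues and 5 neighbours were called; the all-gene median was 0.10 there, against -0.02. DESeq2 called 2125 higher and 1736 lower, with 2 paralogues and 48 pathway genes. Signs were compared for 34 other genes: the tested paralogues, the called neighbours, the 2 genes of each pathway list and the 5 most like the 9. Among the 34, log2 fold changes turned sign for Gvin1 (0.01 on TPM, 0.20 by edgeR, 0.21 by DESeq2 and from -1.44 to 1.12 with 1 library left out), Per2 (from -0.16 to 0.28 with 1 library left out) and, on TPM, Sumo2 (0.07) and Bap1 (0.06). None of these was called. Outside the 34, the neighbours Pttg1ip, Vamp3 and Mrps24 lay lower in WC1 in CPM and higher in TPM.

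The labels do not say that equal library numbers share anything, and only 2 pairs exist, with a correlation across genes of 0.19 between their deviations. With the numbers as a replicate block, 1769 genes were called higher and 1497 lower, with 2 paralogues (Per1 added), 4 neighbours and 44 pathway genes. With 2 libraries per group, the number of libraries limits the precision.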
